A study of Mus musculus with 36 samples.

Results

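The genes described here are 10 germline genes that are known as targets of promoter DNA methylation in mouse somatic cells: Dazl, Ddx4, Mael, Sycp1, Sycp3, Tdrd1, Tex101, Asz1, Hormad1 and Taf7l. They were chosen by symbol from the 54842 genes of the count table, and all 10 were found there. DNA methylation itself was not measured in these libraries, so the name of the group describes what is known of the genes and not a readout. RNA was sequenced from mouse embryonic fibroblast (MEF) lines in which doxycycline switches on a catalytically dead Cas9 (dCas9) that a guide RNA directs to the major satellite repeats (MSR) of pericentric heterochromatin. The study asked how forced MSR transcription alters heterochromatin and the rest of the transcriptome during and after induction.

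The MSR-dCas9-Control line carries dCas9 alone and the MSR-dCas9-Activator line carries dCas9 fused to the transcriptional activator VPR, with the same guide RNA in both. Doxycycline was given at 10 ng/ml. Each line was sequenced uninduced, at the end of induction and at 4 times after the drug was withdrawn (3, 6, 12 and 24 h), with 3 replicates in each of the 12 groups. Times after the end of induction are counted from that withdrawal. The paper reports that most MSR-dCas9-Activator cells were apoptotic or dead at the last of these times, while MSR-dCas9-Control cells stayed viable. It reports no loss of viability in either line at the end of induction. Whether viability bears on the differences between the lines at 24 h was not tested. Induction lasted 6 h in the MSR-dCas9-Activator line but 24 h in the MSR-dCas9-Control line, so effector, exposure to doxycycline and line cannot be told apart. Both lines were made with the PiggyBac transposon, were selected with hygromycin and were kept as mixed cultures, 1 line for each effector. The replicates are described as biological, but the labels name no separate cultures, so p-values measure the spread between these samples. Gene counts per library ranged from 27376846 to 57371803 (median 42865961). GSAT_MM, the major satellite family, served as the check of targeting and averaged 32.1 ± 0.718 CPM (SD, n = 3) at the end of induction in the MSR-dCas9-Control line. In the MSR-dCas9-Activator line it averaged 10379 ± 12850 CPM (SD, n = 3) at that time, with replicate 3 at 25200 CPM and replicate 2 at 2363 CPM. CPM are gene reads scaled to a common library total, here after TMM correction for the composition of each library. SYNREP_MM, the minor satellite family, averaged 1.72 ± 0.379 and 458 ± 101 CPM (SD, n = 3 each) in the same order. Both families were already higher in the MSR-dCas9-Activator line before induction. GSAT_MM averaged 81.1 ± 25.4 against 34.7 ± 1.64 CPM there, and SYNREP_MM 11.9 ± 3.71 against 1.58 ± 0.152 CPM (SD, n = 3 each). From 3 to 24 h after removal the group means of GSAT_MM in the MSR-dCas9-Activator line lay between 12035 and 24666 CPM.

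Replicate 2 of the MSR-dCas9-Activator line lay below replicates 1 and 3 for most genes called higher, at both times described most here. It was the lowest of the 3 libraries for 83.1% of the 6303 genes called higher between the lines (edgeR adjusted p under 0.05 and beyond 2-fold) at the end of induction and for 88.7% of the 7964 called higher at 24 h. Without that library the same number of members was called between the lines, 3 at each time. The log2 fold changes without it were 3.82 and 2.64 for Taf7l and 1.66 and 5.19 for Ddx4, at the end of induction and at 24 h, and the edgeR adjusted p-values of Hormad1 were 4.88e-05 and 1.24e-05. Hormad1 was tested only because of the groups in which it was high.

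Germline genes of this kind have promoters rich in CpG dinucleotides. Their CpGs are methylated as the early embryo forms somatic lineages, and the DNA methyltransferases keep them methylated in dividing cells. A second layer is a non-canonical Polycomb complex, PRC1.6, which reaches such promoters through its DNA-binding subunits E2F6 and MGA with its partner MAX, and which recruits H3K9 methyltransferases. In germ cells the marks are erased and the genes are switched on for meiosis and for the piRNA pathway, which silences transposons.

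The promoters are rich in CpGs, and most hold a motif through which this control is known to act. All 10 members had a promoter in the RefSeq table for GRCm38.p6 (250 bases before and 50 bases after the start site). Each held between 15 and 38 CpGs, above the median of 7 over 32851 promoters. The E-box CACGTG, the letters read by MGA and MAX, was found in 7 of the 10 (Ddx4, Mael, Sycp1, Sycp3, Tdrd1, Hormad1 and Taf7l), where 7.15% of all promoters hold it. The E2F core TCCCGC, searched on both strands like the E-box, was found in 5 of the 10 (Ddx4, Mael, Sycp1, Sycp3 and Hormad1), where 20% of all promoters hold it. Dazl, Tex101 and Asz1 held neither motif. Both motifs contain a CpG, and the shares over all promoters were not matched for CpG count, so they do not separate the motifs from CpG content. The motifs do not overlap each other in these promoters. The RefSeq start of Tex101 lies 4625 bases from the GENCODE M21 start and that of Ddx4 165 bases from it, while the others lie within 18 bases. The 3 promoters of the genes that rose in the MSR-dCas9-Activator line are printed first, and the promoter of Sycp3, a gene that was not called higher and whose promoter holds the same motifs, is printed for comparison. They are read 5′ to 3′ along the gene, with the E-box and the E2F core (or its reverse complement GCGGGA) in capitals.
Hormad1, chr3:95559427-95559726, plus strand: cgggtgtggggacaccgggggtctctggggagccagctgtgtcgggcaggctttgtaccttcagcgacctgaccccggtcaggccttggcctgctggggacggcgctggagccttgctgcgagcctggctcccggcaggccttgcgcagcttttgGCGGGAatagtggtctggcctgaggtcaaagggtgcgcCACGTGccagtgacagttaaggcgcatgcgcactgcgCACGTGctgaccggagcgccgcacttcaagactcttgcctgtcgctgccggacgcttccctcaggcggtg
Taf7l, chrX:134476441-134476740, minus strand: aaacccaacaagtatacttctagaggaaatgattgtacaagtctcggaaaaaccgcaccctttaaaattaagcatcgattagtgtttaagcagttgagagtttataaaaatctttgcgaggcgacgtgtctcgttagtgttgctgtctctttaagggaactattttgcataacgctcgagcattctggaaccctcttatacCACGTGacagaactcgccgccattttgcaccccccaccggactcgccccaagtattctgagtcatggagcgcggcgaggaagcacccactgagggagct
Ddx4, chr13:112652261-112652560, minus strand: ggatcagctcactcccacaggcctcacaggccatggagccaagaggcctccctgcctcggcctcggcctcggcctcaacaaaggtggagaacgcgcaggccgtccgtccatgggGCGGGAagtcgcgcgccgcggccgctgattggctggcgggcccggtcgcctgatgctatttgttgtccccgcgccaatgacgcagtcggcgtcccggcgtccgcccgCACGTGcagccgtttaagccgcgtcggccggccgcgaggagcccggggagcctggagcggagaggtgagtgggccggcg
Sycp3, chr10:88459337-88459636, plus strand: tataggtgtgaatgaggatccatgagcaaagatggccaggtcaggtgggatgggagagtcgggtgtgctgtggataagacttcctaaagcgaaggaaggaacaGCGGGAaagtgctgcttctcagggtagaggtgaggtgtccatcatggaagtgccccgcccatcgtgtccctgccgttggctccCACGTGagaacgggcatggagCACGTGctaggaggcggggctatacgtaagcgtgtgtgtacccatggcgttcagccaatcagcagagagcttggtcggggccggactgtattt
Hormad1 held E-boxes at positions -57 and -20 from the start site and an E2F core at -95. Taf7l held 1 E-box, at -49, and no E2F core. Ddx4 held an E-box at -29 and an E2F core at -136, and Sycp3 held E-boxes at -64 and -43 and an E2F core at -147. A match of these letters is a description of the sequence and shows no binding.

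Of the 10 members, Taf7l, Hormad1 and Ddx4 rose in the MSR-dCas9-Activator line, Sycp1 and Sycp3 had reads in every library and were not called higher, and Dazl, Mael, Tdrd1, Tex101 and Asz1 stayed at 7 reads or fewer in every library. Taf7l was 11.4 times as high in MSR-dCas9-Activator as in MSR-dCas9-Control cells at the end of induction and 5.31 times as high 24 h after removal. Hormad1 went from 0 reads in all 6 uninduced libraries to reads in all 15 MSR-dCas9-Activator libraries from induction on. Ddx4 was 3.01 times as high between the lines at the end of induction and 36.2 times as high 24 h after removal. The second ratio rests on 2, 1 and 1 reads in the MSR-dCas9-Control libraries. Within the MSR-dCas9-Activator line Ddx4 was not called at the end of induction (edgeR adjusted p = 0.166). Its level in the MSR-dCas9-Control line was lower than before induction at both times. In bulk RNA, fewer cells with a transcript and less of it in each cell cannot be told apart.

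**Figure D1:**
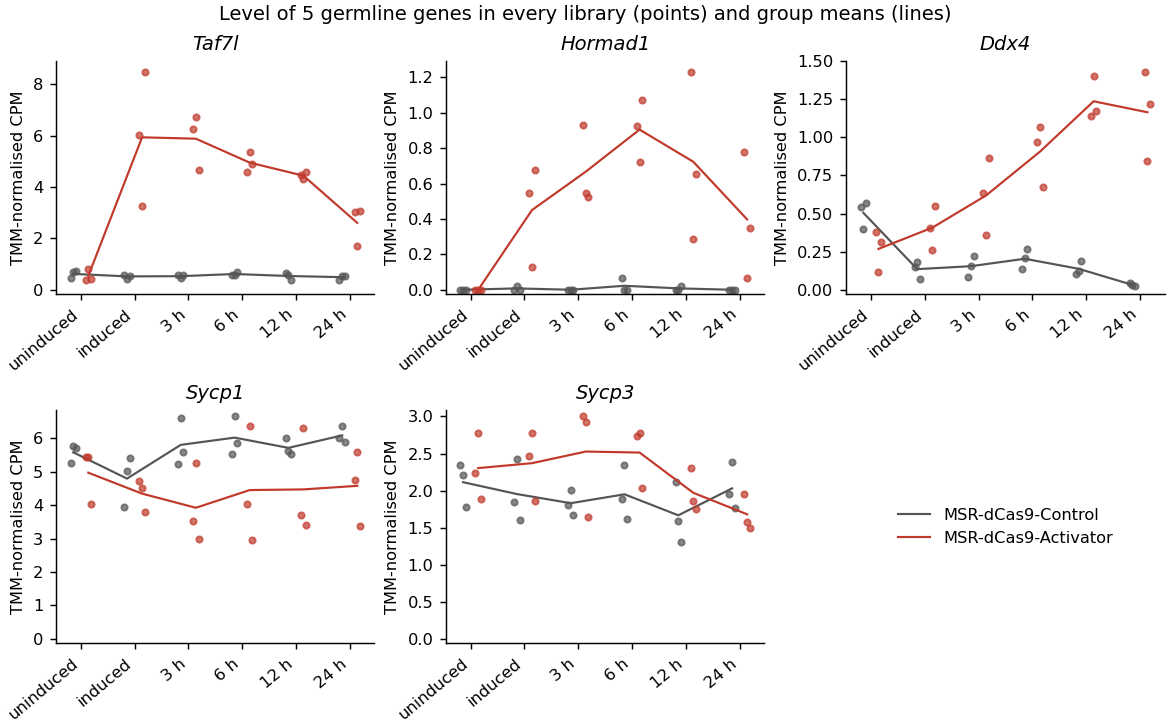
TMM-normalised CPM (y axis) of the 5 members with enough reads to test, at the 6 time points (x axis) in MSR-dCas9-Control (grey) and MSR-dCas9-Activator cells (red). Points are libraries and lines join group means. Taf7l, Hormad1 and Ddx4 lie above the MSR-dCas9-Control line at all 5 time points from induction on, and the lines of Sycp1 and Sycp3 lie close together.

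Hormad1 (chr3:95559677-95587671, plus strand, as are all positions here in GRCm38 with GENCODE M21) encodes a HORMA-domain protein of the unsynapsed meiotic chromosome axis. Its count was 0 in the 3 uninduced libraries of each line. In MSR-dCas9-Activator cells replicates 1, 2 and 3 had 28, 5 and 33 reads at the end of induction, 47, 26 and 20 reads at 3 h, and 41, 31 and 38 reads at 6 h. They had 51, 13 and 19 reads at 12 h and 32, 3 and 14 reads at 24 h. The MSR-dCas9-Control line had 4 reads in all over its 15 libraries from induction on. Every MSR-dCas9-Activator library from induction on was higher in CPM than all MSR-dCas9-Control libraries of its time point. Of the 28536 genes tested, 31.8% were higher without overlap in this way at the end of induction, then 39.8% (3 h), 38.1% (6 h), 39.9% (12 h) and 32.7% (24 h). Levels averaged 0.450 ± 0.284 CPM (SD, n = 3) at the end of induction, 0.905 ± 0.177 at 6 h and 0.397 ± 0.357 at 24 h, so the spread at 24 h was nearly as large as the mean. With 66 reads against 1 read at the end of induction, the ratio between the lines was 59.4 (95% interval 10.3 to 2381, for counting error only). Against the 0 reads of MSR-dCas9-Control cells, taken as up to 3 over the group, Hormad1 was at least 27.1-fold higher at 3 h and at least 16.1-fold higher at 24 h. Within the MSR-dCas9-Activator line it was at least 20.5-fold higher at the end of induction than in uninduced cells. The adjusted p-value from edgeR's quasi-likelihood test (Benjamini-Hochberg over 28536 genes) was 6.4e-05 at the end of induction and 4.15e-05 at 24 h. Hormad1 passed the filter on low counts only through the groups in which it was high.

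Sycp1 (chr3:102818499-102936100, minus strand) encodes the transverse filament of the synaptonemal complex, and Sycp3 (chr10:88459569-88473236, plus strand) encodes a protein of its lateral elements. Both were detected in all 36 libraries, Sycp1 with 99 to 318 reads and Sycp3 with 44 to 152 reads, so neither gene was at 0 before induction, although some of the reads counted for them may belong to overlapping genes. Uninduced MSR-dCas9-Control cells had 309, 188 and 241 reads of Sycp1 and 138, 72 and 75 reads of Sycp3. Sycp1 averaged 5.58 ± 0.275 CPM there and 4.97 ± 0.804 CPM in the MSR-dCas9-Activator line before induction (SD, n = 3 each). From induction on, its mean in the MSR-dCas9-Activator line was below that of the MSR-dCas9-Control line at every time point. At 3 h it was 3.92 ± 1.18 against 5.80 ± 0.710 CPM (SD, n = 3 each), a log2 fold change of -0.58 (standard error 0.18, edgeR adjusted p = 0.00629). The difference was -0.47 at 6 h (edgeR adjusted p = 0.0243) and -0.43 at 24 h (edgeR adjusted p = 0.0398), none of them beyond 2-fold. The lines overlapped at all time points but 24 h. With the libraries scaled to the 13 mitochondrially encoded mRNAs in place of TMM, Sycp1 passed both limits at 3 h (-1.17) and 6 h (-1.15), in a fit in which the median of all genes moved from 0.16 to -0.44 at 3 h and from 0.13 to -0.58 at 6 h. Sycp3 lay within 1.38-fold between the lines at every time point, with log2 fold changes from -0.27 at 24 h to 0.45 at 3 h (standard error 0.17, edgeR adjusted p = 0.019), and the lines overlapped at all 6 time points. Its direction turned with the mitochondrial scaling at induction, 3, 6 and 12 h. Sycp3 overlaps Chpt1 on the opposite strand. The libraries were stranded, but whether strand was used in counting is not given in the sources used here, so reads of the 2 genes may not be told apart. Sycp1 spans 3 annotated pseudogenes.

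Ddx4 (Vasa, chr13:112598333-112652475, minus strand) encodes an RNA helicase of the germ granule, or nuage, where piRNAs are made. It was transcribed at a low level before induction, with 32, 13 and 24 reads in MSR-dCas9-Control cells and 18, 5 and 12 reads in MSR-dCas9-Activator cells. Its mean CPM there was lower in the MSR-dCas9-Activator line. That difference did not pass the test (log2 fold change -0.91, edgeR adjusted p = 0.33). In the MSR-dCas9-Activator line the counts of replicates 1, 2 and 3 were 21, 10 and 27 at the end of induction, 32, 17 and 33 at 3 h, and 43, 46 and 24 at 6 h. By 12 h they were 47, 64 and 34, and by 24 h 59, 38 and 49. The mean level went from 0.268 ± 0.135 CPM (SD, n = 3) in uninduced cells to 1.24 ± 0.144 at 12 h and 1.17 ± 0.297 at 24 h, and these last 2 groups overlapped. In the MSR-dCas9-Control line the counts were 8, 8 and 2 at the end of induction and 2, 1 and 1 at 24 h. The mean level there went from 0.505 ± 0.0928 to 0.135 ± 0.0569 and 0.0322 ± 0.0101 CPM (SD, n = 3 each). At 24 h the difference between the lines therefore came from both sides, from a higher level than before induction in one line and a lower level in the other.

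Between the lines Ddx4 was higher at the end of induction by a log2 fold change of 1.47 (standard error 0.42, edgeR adjusted p = 0.00389), at 12 h by 3.16 (standard error 0.38) and at 24 h by 5.07 (standard error 0.50, edgeR adjusted p = 1.11e-09). Within the MSR-dCas9-Activator line it did not pass the test at the end of induction (0.60, standard error 0.38, edgeR adjusted p = 0.166) and rose by 24 h (2.10, standard error 0.35, edgeR adjusted p = 7.03e-06). Within the MSR-dCas9-Control line it fell by 24 h (-3.88, standard error 0.54, edgeR adjusted p = 0.000139). At the end of induction the value in that line was -1.78 (edgeR adjusted p = 0.065). The fall rests on few reads. It was no longer called without replicate 1 (edgeR adjusted p = 0.0672) or without replicate 3 (edgeR adjusted p = 0.189), and DESeq2 gave it no adjusted p-value. Without replicate 3 the difference between the lines at the end of induction was 1.01 (edgeR adjusted p = 0.137).

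Taf7l (chrX:134460118-134476490, minus strand) encodes a germ cell paralogue of TAF7, a subunit of the general transcription factor TFIID. It was detected in every library. In uninduced cells its level was 0.443, 0.674 and 0.736 CPM in the MSR-dCas9-Control line and 0.397, 0.793 and 0.415 CPM in the MSR-dCas9-Activator line, which overlap. At the end of induction it was 6.03, 3.27 and 8.49 CPM in the MSR-dCas9-Activator line and 0.577, 0.437 and 0.546 CPM in the MSR-dCas9-Control line. After removal the mean in the MSR-dCas9-Activator line was 5.88 ± 1.07 CPM at 3 h and 4.95 ± 0.391 CPM at 6 h. By 12 h it was 4.44 ± 0.14 CPM and by 24 h 2.60 ± 0.774 CPM (SD, n = 3 each). The lines did not overlap from induction on. Among all genes tested, 31.8% (end of induction), 39.8% (3 h), 38.1% (6 h), 39.9% (12 h) and 32.7% (24 h) were higher without overlap. The MSR-dCas9-Activator libraries of 24 h lay below those of 3, 6 and 12 h. In the MSR-dCas9-Control line the group means stayed between 0.490 and 0.618 CPM. Taf7l was higher between the lines by a log2 fold change of 3.49 (standard error 0.30, edgeR adjusted p = 1.59e-10) at the end of induction and 2.41 (standard error 0.31, edgeR adjusted p = 1.42e-07) at 24 h. Its change within the MSR-dCas9-Activator line was 3.44 (standard error 0.30) and 2.26 (standard error 0.30) at the same times.

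The change from uninduced cells was also compared between the lines, which takes out any difference present before induction. Ddx4 changed more in the MSR-dCas9-Activator than in the MSR-dCas9-Control line by 2.38 at the end of induction (standard error 0.56, edgeR adjusted p = 0.00194) and by 5.98 at 24 h (standard error 0.64, edgeR adjusted p = 1.03e-07). Taf7l changed more by 3.65 (standard error 0.46, edgeR adjusted p = 1.81e-06) and by 2.58 (standard error 0.46, edgeR adjusted p = 0.000107). Hormad1 could not be given a value here, since both uninduced groups are at 0. Without replicate 3 the difference for Ddx4 at the end of induction was 1.95 (edgeR adjusted p = 0.105).

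**Figure D2:**
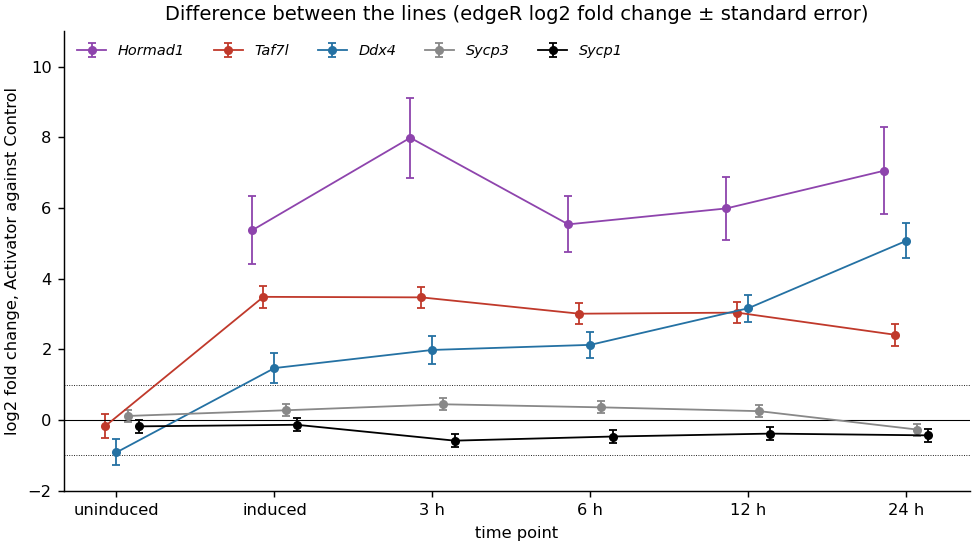
Log2 fold change of the MSR-dCas9-Activator over the MSR-dCas9-Control line (y axis) at each time point (x axis), with edgeR standard errors as bars and dotted lines at 2-fold. Ddx4 goes from 1.47 at the end of induction to 5.07 at 24 h, Taf7l goes from 3.49 to 2.41, and Sycp1 and Sycp3 stay within the dotted lines. Hormad1 has no value before induction, and its fold changes rest on 0 to 2 reads in the MSR-dCas9-Control groups.

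The remaining piRNA pathway members were near the limit of detection. Tdrd1 (chr19:56826209-56870012, plus strand), a Tudor-domain scaffold of the nuage, had 0 reads in all 6 uninduced libraries. In the MSR-dCas9-Activator line it had 0, 2 and 0 reads at the end of induction, 6, 3 and 1 reads at 6 h, and 7, 4 and 3 reads at 24 h. The MSR-dCas9-Control line had 0, 3 and 0 reads at the end of induction, 1, 0 and 1 reads at 12 h, and 0 reads at 3, 6 and 24 h. At 24 h Tdrd1 was at least 4.60-fold higher than in MSR-dCas9-Control cells, with the 0 reads taken as up to 3 over the group. Mael (Maelstrom, chr1:166201201-166238747, minus strand), a nuage protein needed for transposon silencing, had 2, 1 and 5 reads in MSR-dCas9-Activator cells at 24 h and 0 in MSR-dCas9-Control cells, at least 2.63-fold higher. Asz1 (Gasz, chr6:18050964-18109061, minus strand), which anchors the nuage to mitochondria, had 11 reads over 8 of the 15 MSR-dCas9-Activator libraries from induction on and 0 reads in all 18 MSR-dCas9-Control libraries. These members therefore had reads mainly in the MSR-dCas9-Activator line, at counts of 7 or fewer.

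Dazl (chr17:50279395-50293636, minus strand), an RNA-binding protein that controls translation in germ cells, had 7 reads over the 15 MSR-dCas9-Activator libraries from induction on and 5 reads over the 15 of the MSR-dCas9-Control line. No library held more than 2 reads of Dazl, and a difference between the lines was not detectable at this depth. Tex101 (chr7:24668007-24676675, minus strand), a membrane-anchored glycoprotein of germ cells that acts in sperm, had 16 and 5 reads in the same libraries. It had 2, 1 and 6 reads in MSR-dCas9-Activator cells at 24 h and 0, 2 and 1 in MSR-dCas9-Control cells, a ratio of 2.95 (95% interval 0.737 to 17.0, counting error only). For the 5 genes with few reads, 30 comparisons of 3 against 3 libraries were made with a two-sided exact permutation test, whose smallest p is 0.1. The lines did not overlap in 5 of them: Tdrd1 at 6 h and 24 h, Mael at 24 h, Tex101 at 3 h and Asz1 at 12 h (exact p = 0.1, adjusted p = 0.6 for each). Of the 19570 genes with reads that failed the filter on low counts, the lines did not overlap in 14.4% of such comparisons over the 6 time points. The share was 2.3% before induction and 8.45% at its end, and then 15.6% (3 h), 19.6% (6 h), 24.4% (12 h) and 16.1% (24 h). The members near 0 are therefore not set apart from other low genes by these 5 comparisons. Without the filter on low counts, edgeR gave Tdrd1 an adjusted p of 0.0126 at 24 h, where that fit called 10403 of 48106 genes higher.

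**Figure D3:**
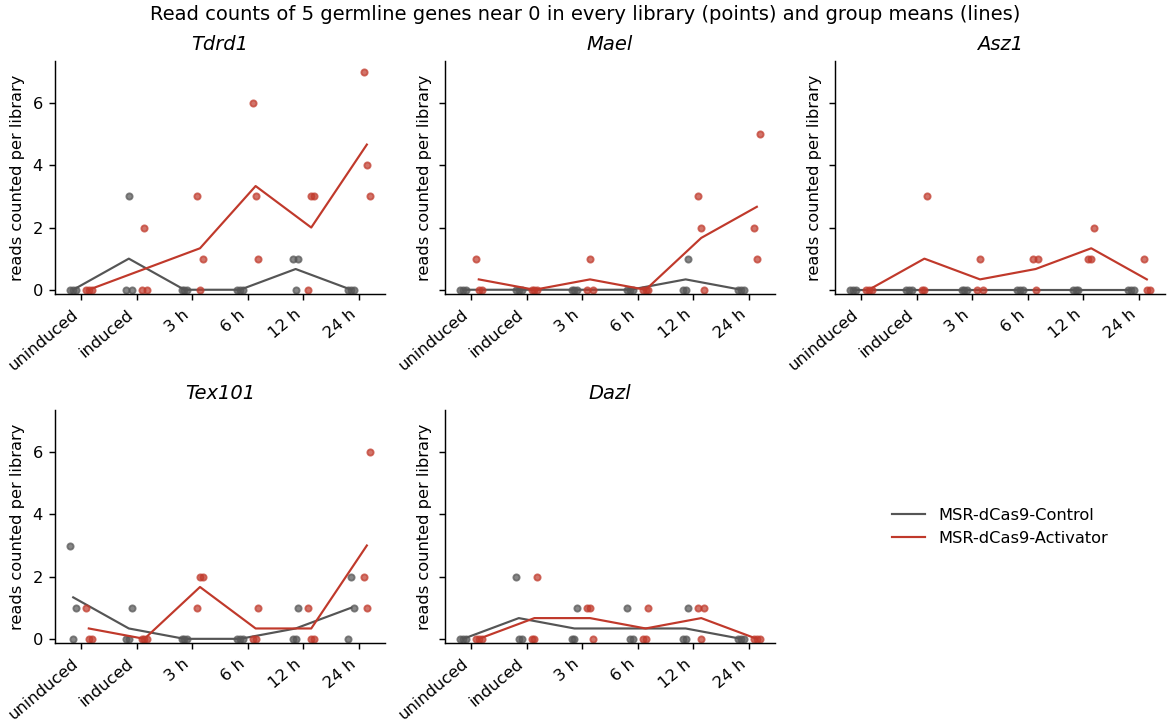
Read counts per library (y axis, 1 scale for all panels) of the 5 members near 0, at the 6 time points (x axis) in MSR-dCas9-Control (grey) and MSR-dCas9-Activator cells (red). Points are libraries and lines join group means. The highest count is 7, for Tdrd1 at 24 h, and Dazl does not exceed 2 in either line.

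These counts were set against those of all genes. A gene was called when its adjusted p-value was under 0.05 and its change was beyond 2-fold. Before induction no member was called in either direction between the lines (0.75% of 28536 genes were), by edgeR or by DESeq2, and Ddx4 was the 1 member with an unadjusted p under 0.05. Of the 5 members tested, 3 were called higher in MSR-dCas9-Activator cells at each later time point: Taf7l, Hormad1 and Ddx4. Over all genes tested the share called higher was 22.1% at the end of induction. It was 27.1% and 28.6% at 3 h and 6 h, and then 31.3% (12 h) and 27.9% (24 h). The additive fit over the time course, the form of the study's own model, called the same 3 members against 27.9% of all genes. With the filter on low counts lifted it also called Mael, Tdrd1 and Asz1, at log2 values of 2.37, 2.31 and 2.51. That fit called 16332 of 48106 genes higher, and the median over all its genes was 0.53. Many other genes were thus called higher with them. Hormad1 could be tested only because of the groups in which it was high, so its call adds nothing to a share, and no share of the members is drawn from these counts.

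Within the MSR-dCas9-Activator line 2 members (Hormad1 and Taf7l) were called higher at the end of induction and 3 at 24 h, against 20.5% and 27.1% of all genes. Within the MSR-dCas9-Control line no member was called lower at the end of induction and 1 (Ddx4) at 24 h, against 0.0946% and 0.144% of all genes. At the end of induction Ddx4 was the 1 member there with an unadjusted p under 0.05 in edgeR, and DESeq2 called it. For the difference of changes 2 members (Ddx4 and Taf7l) were called higher at each time, against 9.14% and 11.2% of all genes. The members silent before induction were counted apart. There were 4 members (Dazl, Tdrd1, Asz1 and Hormad1) among the 20289 genes with 0 reads in all 6 uninduced libraries. More than 3 reads over the 3 libraries were found for 1 of the 4 (Hormad1) in induced MSR-dCas9-Activator cells, against 12.5% of the 20289 genes. At 24 h it was 2 of the 4 (Hormad1 and Tdrd1), against 22.3%. In the MSR-dCas9-Control line it was none of the 4 at either time, against 0.261% and 0.320%. Over all these genes the share was thus higher in the MSR-dCas9-Activator than in the MSR-dCas9-Control line, and 4 members are too few to be read against it.

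Levels of different members were compared per kilobase of exon (CPM per kb), with the reads of Sycp3 and Sycp1 taken as counted. In uninduced MSR-dCas9-Control cells Sycp3 stood at 1.67 and Sycp1 at 1.57 CPM per kb, followed by Taf7l at 0.275 and Ddx4 at 0.167, with Hormad1 at 0. Sycp3 and Sycp1 overlapped there between replicates, and the others followed without overlap. In induced MSR-dCas9-Activator cells Taf7l stood first at 2.64 CPM per kb, above Sycp3 at 1.87 and Sycp1 at 1.22, with Hormad1 at 0.260 and Ddx4 at 0.135, and Taf7l overlapped with Sycp3 and Hormad1 with Ddx4. At 24 h Sycp3 stood at 1.33, Sycp1 at 1.29 and Taf7l at 1.16, and Ddx4 at 0.387 stood above Hormad1 at 0.230, with overlap within the first 3 and between the last 2. Even at their highest, Hormad1 reached 0.523 CPM per kb (6 h) and Ddx4 0.410 (12 h), below the lowest group mean of Sycp1 (1.10) and Sycp3 (1.32).

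The shape over time was described by the genes whose 12 group means were most alike, by Pearson's r of log2(CPM + 0.1) among 23425 genes. For Taf7l these were Slc17a6, Gm48671 and Fhl5, each with r = 0.998. For Hormad1 they were Rorb (0.998), Gm13425 (0.997) and Grrp1 (0.997). For Ddx4 they were B3galt6 (0.974), Rnasek (0.941) and 4930471M09Rik (0.937). Sycp1 was most like Gm43059 (0.968), Gm22952 (0.966) and Gm24492 (0.953), and Sycp3 most like Mccc2 (0.965), Tmem98 (0.964) and Fah (0.959). None of the 15 is a member of the germline lists used here. The 12 means share libraries and scaling, so these values describe likeness only.

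Genes beside the members were examined because the annotation places several of them on the same strand close by. They were chosen by distance, within 30 kb of a member's ends, after the member's values were known. Ctss, which encodes the lysosomal protease cathepsin S, ends 3.3 kb upstream of the start of Hormad1 on the same strand. It had 77, 33 and 103 reads in induced MSR-dCas9-Activator cells and 0, 1 and 0 in induced MSR-dCas9-Control cells, a ratio of 192 (95% interval 34.0 to 7607, counting error only), so Ctss and Hormad1 were both higher in the same libraries. Golph3l, 1.3 kb downstream of Hormad1 on the same strand, was at 19.7 and 17.1 CPM in the same groups (log2 fold change 0.19, not called). At 24 h it was at 9.96, 12.7 and 11.4 CPM in MSR-dCas9-Activator and 18.9, 21.5 and 16 CPM in MSR-dCas9-Control cells, lower without overlap but within 2-fold (-0.72, edgeR adjusted p = 2.25e-05), while Hormad1 was higher.

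Beside Taf7l, Drp2 on the opposite strand, with its nearer end 3.5 kb downstream, was called higher at the end of induction (2.23, standard error 0.19) and not at 24 h (0.57). The pseudogene Gm16410 and the snRNA gene Gm23124 on the other side were called higher at both times. Beside Ddx4, Il31ra lies 4.0 kb downstream on the same strand and was called higher by 3.24 (standard error 0.27) at the end of induction and 4.08 (standard error 0.29) at 24 h. The pseudogene Gm3226, which lies between these in distance at 3.2 kb, was not called at the end of induction (-0.13) and was lower at 24 h (-1.22). Of the 11 genes tested beside Hormad1, Taf7l or Ddx4, 6 were called higher at the end of induction and none lower, and at 24 h 5 were higher and 1 lower. Of the 8 tested beside the other members, 1 was called higher and 1 lower at the end of induction, and 1 higher and 2 lower at 24 h. Over all genes tested 22.1% were called higher and 12.2% lower at the end of induction, and 27.9% and 7.29% at 24 h. The neighbours were divided by what their member did, so the 2 sets of counts are a description. The 1 higher at the end of induction was Nr1h5, 3.6 kb upstream of Sycp1 on the same strand, with 16, 9 and 23 reads against 0 in all 3 MSR-dCas9-Control libraries, at least 14.4-fold, while Sycp1 itself did not rise. Whether reads run on from 1 gene into the next was not tested.

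**Figure D4:**
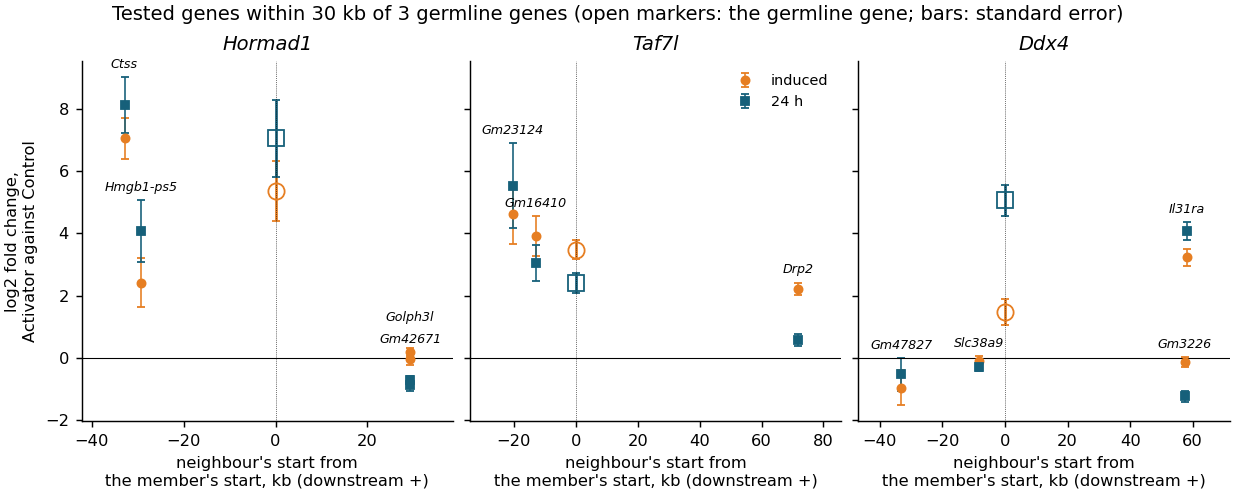
Log2 fold change between the lines (y axis) of the genes tested within 30 kb of Hormad1, Taf7l and Ddx4, by the distance of their start from the member's start in kb (x axis, downstream positive), at the end of induction (orange circles) and at 24 h (blue squares). Open markers are the members and bars are edgeR standard errors. Il31ra beside Ddx4 lies at 3.24 and 4.08, where Ddx4 lies at 1.47 and 5.07. Golph3l beside Hormad1 lies at 0.19 at the end of induction and at -0.72 at 24 h.

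Of the other germline genes of the same pathways that could be tested, the larger part was called higher, though not all. The lists were chosen with earlier results known, and many genes could be tested only because of groups in which they were high. The counts below therefore describe these genes and are no test of the lists. Of 13 other piRNA and nuage genes tested (of 15 listed), 8 were called higher at the end of induction and 10 at 24 h, with none lower at either time. Among all genes tested, 22.1% were called higher at the end of induction and 27.9% at 24 h. Gpat2, a mitochondrial protein of the piRNA pathway, was not called (-0.17, then -0.57 at 24 h with an edgeR adjusted p of 0.0399, within 2-fold). Tdrd5, a Tudor-domain protein of the nuage, had the largest rise at 24 h (8.11, standard error 0.57, edgeR adjusted p = 7.23e-12). In MSR-dCas9-Activator cells it went from 0.0381 ± 0.0490 CPM before induction to 12.0 ± 5.01 CPM at 24 h (SD, n = 3 each). Piwil2, a PIWI protein that binds piRNAs, had 259, 94 and 265 reads in induced MSR-dCas9-Activator cells and 2, 3 and 3 in induced MSR-dCas9-Control cells. Of 20 other meiotic chromosome genes tested (of 22 listed), 13 were called higher at the end of induction and 17 at 24 h, with none lower. Prdm9, which sets the sites of meiotic recombination, was at -0.41 at the end of induction and 0.44 at 24 h, and was not called at either time. Terb2, a telomere attachment factor of meiosis, had the largest fitted rise at 24 h, with 75, 31 and 63 reads against 0 in all 3 libraries, at least 55.5-fold. Dmc1, the meiotic recombinase, went from 4, 2 and 5 reads in induced to 156, 40 and 124 reads in MSR-dCas9-Activator cells at 24 h. Stag3, a meiotic cohesin subunit, had 177, 94 and 241 reads against 10, 7 and 4 at the end of induction.

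Of 11 further germline genes tested with promoters methylated in somatic cells (of 18 listed), 8 were called higher at the end of induction and 10 at 24 h, with none lower. The shares of all genes called higher at these times were 22.1% and 27.9%. Nxf2, an X-linked mRNA export factor of the testis, had the largest rise at 24 h (8.46, standard error 0.68), with 384, 140 and 295 reads against 1, 0 and 1. The median log2 fold change at the end of induction was 1.5 for the piRNA and nuage genes, 2.70 for the meiotic chromosome genes and 4.24 for the further germline genes, against 0.10 for all genes. With genes at 0 in MSR-dCas9-Control cells set to their lower bound these medians were 1.05, 1.69 and 4.24. At 24 h they were 2.34, 3.98 and 5.91, or 2.34, 3.98 and 3.25 with the bounds, against 0.01 for all genes. Gpat2, Prdm9, Piwil2, Dmc1 and Stag3 were picked out after their values were seen. Many listed genes passed the filter only through groups in which they were high, so the counts and the medians are a description.

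The repressors and methylation factors formed a mixed list, which also held the 5-methylcytosine dioxygenases Tet1, Tet2 and Tet3. Of the 20 tested, 1 (Tet1) was called higher and 4 lower at the end of induction. At 24 h 2 (Tet1 and Dnmt3l) were called higher and 5 lower. Among all genes tested, 22.1% were called higher and 12.2% lower at the end of induction, and 27.9% and 7.29% at 24 h. The median log2 fold change was -0.21 and -0.65 at these times. Dnmt1, the maintenance DNA methyltransferase, had the largest fall at 24 h (-1.25, standard error 0.11, edgeR adjusted p = 1.42e-10), from 267 ± 13.2 CPM in MSR-dCas9-Control to 112 ± 6.09 CPM in MSR-dCas9-Activator cells (SD, n = 3 each). At the end of induction its log2 fold change was 0.05 and it was not called. E2f6 was lower at the end of induction (-1.46, edgeR adjusted p = 5.22e-09), with 481, 558 and 484 reads against 1632, 1338 and 833. The other 3 called lower at that time were Dnmt3b, Tet3 and Zbtb33, and the other 4 at 24 h were Cbx3, Uhrf1, Ehmt1 and Dnmt3b. Dnmt3l, a germline cofactor of DNA methylation, had the largest rise at 24 h, with 21, 15 and 19 reads against 1, 0 and 0, and Tet1, a 5-methylcytosine dioxygenase, was higher at both times. E2f6, Tet1 and the genes named with them were picked out after their values were seen. Whether any of these differences bears on the members was not tested.

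**Figure D5:**
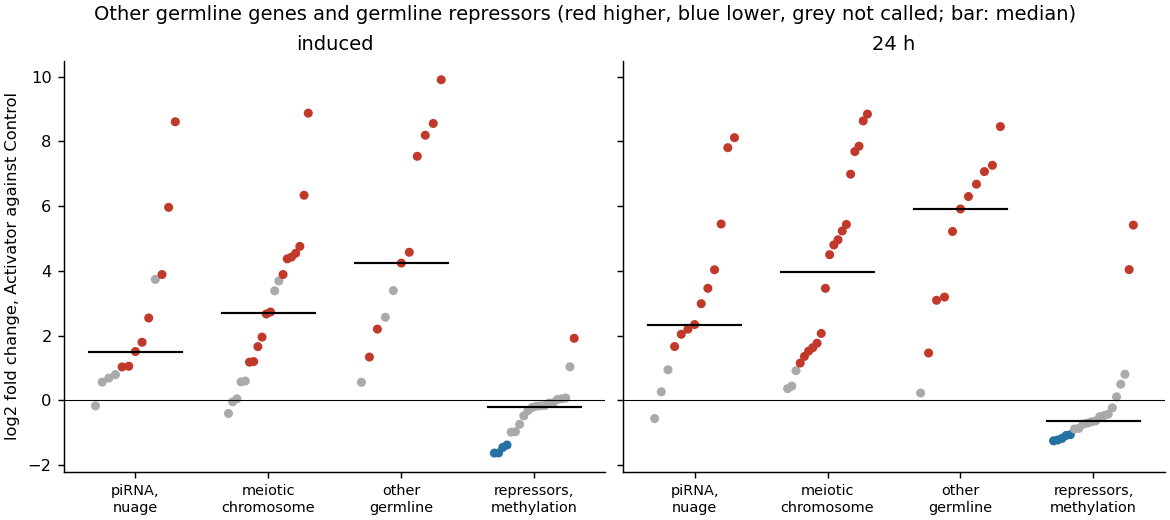
Log2 fold change between the lines (y axis) for each tested gene of 4 lists (x axis) at the end of induction (left) and at 24 h (right). Red genes were called higher, blue genes lower and grey genes were not called, and black bars are list medians. At 24 h the medians of the 3 germline lists are 2.34, 3.98 and 5.91 and that of the repressors and methylation factors is -0.65.

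Markers of cell types were checked beside these results. As a measure for their calls, 22.1% of all genes tested were called higher and 12.2% lower at the end of induction. The shares at 24 h were 27.9% and 7.29%. The 10 fibroblast markers, all with reads in every group, summed to between 23564 and 25797 CPM in uninduced MSR-dCas9-Control cells and between 24748 and 25651 CPM in uninduced MSR-dCas9-Activator cells. In MSR-dCas9-Activator cells at 24 h they summed to between 5578 and 13243 CPM, against between 17623 and 19676 CPM in MSR-dCas9-Control cells. Most of that sum is collagen mRNA. Of the 9 tested, 2 were called higher and 2 lower at the end of induction, and 1 higher and 4 lower at 24 h. Among them were Lum, higher (2.11), and Col1a1 (-1.38) and Col1a2 (-1.63), lower. The call of Lum rests mainly on replicate 2, with 14, 403 and 48 reads in MSR-dCas9-Activator and 18, 30 and 27 in MSR-dCas9-Control cells. Its mean at 24 h, 3.5 ± 4.74 CPM, was not above the 4.42 ± 0.93 CPM of uninduced MSR-dCas9-Activator cells (SD, n = 3 each). The 10 spermatid markers summed to between 7.18 and 16.6 CPM in induced MSR-dCas9-Activator cells and between 2.14 and 2.69 CPM in induced MSR-dCas9-Control cells, with 3 of the 4 tested called higher at both times. Most of the sum in MSR-dCas9-Activator cells was Acrv1, at 9.88 ± 4.53 CPM (SD, n = 3). The 6 Sertoli and Leydig cell markers summed to between 19.6 and 31.5 against between 7.76 and 8.66 CPM at the end of induction, with 4 of 5 called higher at both times. Most of both sums was Star, at 22.6 ± 5.21 against 7.20 ± 0.388 CPM (SD, n = 3 each). Of 5 pluripotency markers tested, 2 were called higher at the end of induction and 4 at 24 h, when they summed to between 1.22 and 3.71 CPM. Of 3 early germ cell markers tested, 2 were called higher at both times, and in the MSR-dCas9-Activator line the list summed to at most 2.24 CPM in uninduced cells and 1.65 CPM at 24 h. In induced MSR-dCas9-Activator cells the spermatid markers Tnp1 and Smcp, the Leydig cell marker Hsd3b6 and the germ cell marker Dppa3 were at 0 reads. Nanog, Kit, Insl3 and Gapdhs were not called at either time, with Gapdhs at -0.78 and -0.84. Some markers of each of these cell types were thus called higher at the same times as Taf7l, Hormad1 and Ddx4, and others were not, and their part in the result was not tested. Summed over the 10 members, the level was between 6.66 and 9.12 CPM in uninduced MSR-dCas9-Activator cells, between 11 and 15.5 CPM at the end of induction and between 9.88 and 12.2 CPM at 24 h. In the MSR-dCas9-Control line that sum lay between 6.55 and 9.77 CPM in every group.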

How the data were processed

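RNA was measured in 36 libraries, 12 groups of 3 replicates from 2 MEF lines. Per the study's methods, the authors trimmed paired-end reads from stranded total RNA libraries with cutadapt and mapped them with STAR (GRCm38). TEtranscripts then gave the reads of each gene and each repeat family. The deposited values are counts per gene and per repeat family without normalisation. The annotation release, the strand setting and the handling of multi-mapped reads are not given in the sources used here. The table held 54842 genes, 1561 repeat families and 1 unnamed entry with at most 0.00452% of all counts of a library, which was left out. Repeat families stayed out of library sizes. Of the genes, 54409 matched GENCODE M21 on GRCm38. Libraries of other lines were not used here. No replicate pair agreed within sampling noise (lowest chi-square per degree of freedom 16.2).

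Counts were tested in R 4.3.3 with edgeR 4.0.16 (TMM, filterByExpr, estimateDisp, robust glmQLFit, glmQLFTest) in 1 fit of all 36 libraries by group, with the replicate number as block as in the study's design formula, and with time point and line additively. Filtering kept 28536 genes and 5 of the 10 members. The standard error of a log2 fold change was obtained by dividing its size by the root of the F statistic. P-values were adjusted by Benjamini-Hochberg over all genes tested, and a call needed an adjusted p under 0.05 and a log2 fold change beyond 1. The study's limit of a mean above 100 was tried as an alternative only, since these genes are near 0 in fibroblasts. Genes with 0 reads in a group were taken as up to 3 over the group for lower bounds, and intervals cover counting error only. Low members were compared by a two-sided exact permutation test. Values were tested on simulated data: in the comparison of the lines at the end of induction, 171 of 200 genes changed 4-fold were recovered with 6 false calls among 28536 genes. The simulated counts had 1 fixed spread, no replicate effect and equal numbers of genes raised and lowered. In the data 9782 genes were called in that comparison, so the simulation does not gauge false calls under so wide a change.

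The members and the gene lists were chosen with earlier results of these data known. Named were all 10 members, GSAT_MM and SYNREP_MM, the largest called rise and fall of each other list at 24 h, and the 3 genes most like each member with a mean of at least 10 scaled counts. The lists were piRNA and nuage genes, meiotic chromosome genes, further germline genes, repressors and methylation factors, and markers of fibroblasts, spermatids, Sertoli and Leydig cells, pluripotent cells and early germ cells. Alternatives covered DESeq2 1.42.0, its size factors in edgeR, unscaled library sizes, the 13 mitochondrially encoded mRNAs as the scale, no filter on low counts (48106 genes), the limits on fold change and mean, the replicate block, the libraries in the fit, and leaving out replicates or single libraries.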

Additional observations from a re-analysis of the deposited data

Results flagged for a closer look

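The change from uninduced cells differed between the lines, by the test of the difference itself, for the 2 members that had reads before induction in both lines and rose in the MSR-dCas9-Activator line. For Ddx4 the difference of changes was 2.38 on the log2 scale at the end of induction and 5.98 at 24 h after removal. For Taf7l it was 3.65 and 2.58. Of the difference for Ddx4 at 24 h, 2.10 is the change in the MSR-dCas9-Activator line and -3.88 the change in the MSR-dCas9-Control line, whose 3 libraries at 24 h held 2, 1 and 1 reads of Ddx4. The MSR-dCas9-Control line had doxycycline for 24 h and the MSR-dCas9-Activator line for 6 h, so exposure and effector cannot be told apart. Groups of 3 libraries are too small for a test of outlying samples, and none was made.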

How the results depend on the processing

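The number of members called stayed within 1.5 times its reported value in 218 alternatives and moved further in 21. The study's limit of a mean above 100 left 0 members in each comparison that had calls, since no called member reaches that mean. Without a limit on the fold change 5 were called at 3 h and 5 in the additive fit, and without the filter on low counts 6 in the additive fit. In the MSR-dCas9-Control line at the end of induction, Ddx4 was the 1 member called with DESeq2 and the 1 called with only the groups compared, and leaving out replicates gave 0 to 1 members. At 24 h that line had 0 members called with DESeq2, which gave Ddx4 no adjusted p-value, and leaving out replicates gave 0 to 1. For the difference of changes at the end of induction leaving out replicates gave 1 to 2. Single libraries were not left out of the additive fit. The fit with no replicate block left the number of members called the same in all 13 comparisons, with 3 at the end of induction and 3 at 24 h. Deviations of same-numbered replicates of the 2 lines correlated between -0.00672 and 0.222, not over 0.1 in every pair, so the number is not shown to pair the samples. Scaling to mitochondrial mRNAs turned Sycp3 to -0.087 at the end of induction, to -0.15 and -0.34 at 3 h and 6 h, to -0.38 by 12 h and to -0.21 in the additive fit. Leaving out replicates or single libraries gave Taf7l before induction -0.63 to 0.13, Sycp1 at the end of induction -0.33 to 0.065, Sycp3 before induction -0.0017 to 0.21 and Sycp3 at 24 h -0.41 to 0.019. The same scaling moved the share of higher calls over all genes. At the end of induction 5412 were higher and 5622 lower (6303 and 3479 with TMM), and by 24 h 7277 and 3402 (7964 and 2081). Between these it was 6303 and 8935 for 3 h (7731 and 5306), 6472 and 10360 for 6 h (8161 and 5588), and 7457 and 9776 for 12 h (8938 and 5381). Without a fold limit 16347 genes were called at the end of induction and 18240 at 24 h (9782 and 10045 with it), and with the study's mean limit 2421 and 2128. Within the MSR-dCas9-Control line the alternatives gave 1 to 149 genes at the end of induction (32 as reported) and 1 to 225 at 24 h (60 as reported). Between the lines, Taf7l and Hormad1 stayed past the limits on the adjusted p and on the fold change in all 18 alternatives at each time point from the end of induction on, the mean limit set aside. For Hormad1, which could be tested only because of the groups in which it was high, these alternatives are no independent check. At this depth a gene with 0 reads in a group may hold up to 3, which limits what can be said of Dazl, Mael, Tdrd1, Tex101 and Asz1.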
